A study of Mus musculus with 1814 samples.

Results

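Light zone germinal centre B cells of the TA genotype were compared with those of the WT genotype. The 63 cells, 22 TA and 41 WT, were the wells of sequencing experiment 5 whose sample labels named the light zone and either genotype; the series held 1814 wells in all. The cells were mouse B cells index-sorted on their surface markers into 4 plates and sequenced by SmartSeq2, a full-length single-cell method without molecular identifiers. Every well of the experiment, whichever its genotype, was labelled Dec positive and carried no time. The plates bear the name Ccnd3, but the labels do not state which allele TA or KO stands for, which strain the mice were or which animal a cell came from. Each genotype is therefore 1 sample, no p-value is given, and the 4 plates serve as repeats of the comparison and not as animals. Within each plate the genotypes occupied separate columns, so genotype, animal and position on the plate cannot be told apart. Plates 1 to 4 held 6, 3, 6 and 7 TA cells, against 9, 12, 10 and 10 WT cells.

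Germinal centre B cells alternate between the dark zone, where they divide and mutate their antibody genes, and the light zone, where they present antigen to T cells and are selected. T cell help in the light zone induces MYC and NF-kB targets and lets a cell enter the cycle and return to the dark zone. Ccnd3 encodes cyclin D3, the main D-type cyclin of germinal centre B cells, which with CDK4 or CDK6 phosphorylates the retinoblastoma family of pocket proteins and so releases E2F factors to drive genes of S phase and mitosis.

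The summed depth was 3657400 counts over the TA cells and 5171640 over the WT cells. A TA cell had a median of 167774 counts (62529 to 258523), against 128143 (4240 to 253068) for a WT cell. TA cells had reads of fewer genes, with a median of 1780.5 (1384 to 3974), against 2247 (1174 to 4334) in WT cells, and the gap was there when every cell was thinned to 10000 counts, with 1363 genes in 22 TA cells and 1725 genes in 39 WT cells. The median share of mitochondrial reads was 5.43% in TA cells and 6.52% in WT cells. B cell identity was plain in both, since all 8 B cell markers were past 20 CPM (counts scaled to the library total) and every cell had reads of at least 6 of them. Of the T cell, myeloid and erythroid markers none reached 20 CPM; the T cell list summed to 2.73 CPM in TA cells and 12.96 CPM in WT cells, the myeloid list was at 0 in both, and the erythroid list was at 0 in TA cells and at 16.8 CPM in WT cells. Of the stromal and endothelial list, Pecam1 passed 20 CPM, at 65.1 CPM in TA cells and 91.5 CPM in WT cells, with reads in 5 of 22 and 12 of 41 cells.

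Ccnd3, at chromosome 17, 47505051 to 47599691 (GRCm38, plus strand), was lower in TA light zone cells. Summed over cells it stood at 118.9 CPM in TA cells and 350.0 CPM in WT cells, a log2 ratio of -1.55. By plate, 1 to 4, it was 225.0, 127.1, 50.8 and 116.5 CPM in TA cells, against 224, 357, 372 and 418 CPM in WT cells. TA was thus level with WT on plate 1 and below it on the other 3 plates. The counts behind these levels were 435 (95% exact Poisson interval 395 to 478) and 1810 (1728 to 1895); these and all intervals below cover counting error only. Fewer TA cells had any read of the gene, 10 of 22 or 45.5% (95% exact binomial interval 24.4 to 67.8), against 35 of 41 WT cells or 85.4% (70.8 to 94.4). After thinning to 10000 counts the shares were 36.4% in TA cells and 76.9% in WT cells. The median cell was at 0 CPM in TA and at 408 CPM in WT, and the highest cells were at 580.1 CPM and 1651 CPM. Within G1 cells alone the log2 ratio was -1.68 and within S cells alone -1.63. The other D-type cyclins were nearly absent, with Ccnd1 at 0 in both groups and Ccnd2 in 0 of 22 TA cells and 2 of 41 WT cells. Beside these values, the TA dark zone cells stood at -0.73 relative to WT dark zone cells, and the KO light zone cells, which share the WT light zone cells as reference, at -2.14.

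**Figure D1:**
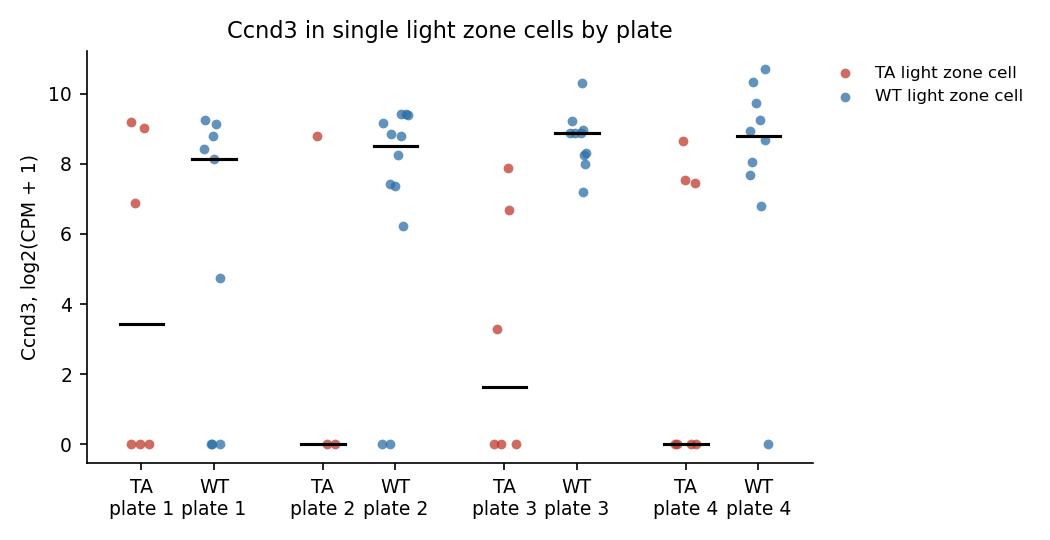
Ccnd3 in each light zone cell as log2(CPM + 1), by plate, with TA cells in red left of WT cells in blue and a bar at the median of each. Of the TA cells 12 of 22 are at 0, against 6 of 41 WT cells, and the bar of TA is below that of WT on each plate.

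Across the transcriptome 7119 genes reached 20 CPM in at least 1 of the groups. Of these, 1358 (19.1%) were at least 2-fold higher in TA cells and 1675 (23.5%) at least 2-fold lower, with a median log2 ratio of -0.03 over all of them. Requiring the same direction on all 4 plates left 89 genes higher (1.25%) and 461 lower (6.48%). This uneven split stands beside the 3 TA cells of plate 2, in which 4282 of the 7119 genes had no read, against 660 in the 12 WT cells of that plate and 393 of the 461 lower genes had no TA read on it. TA cells also had reads of fewer genes each, as given above; the part of either in the lower levels and shares that follow was not tested. A share of genes past 2-fold near the percentages above is thus the background of these small groups.

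**Figure D2:**
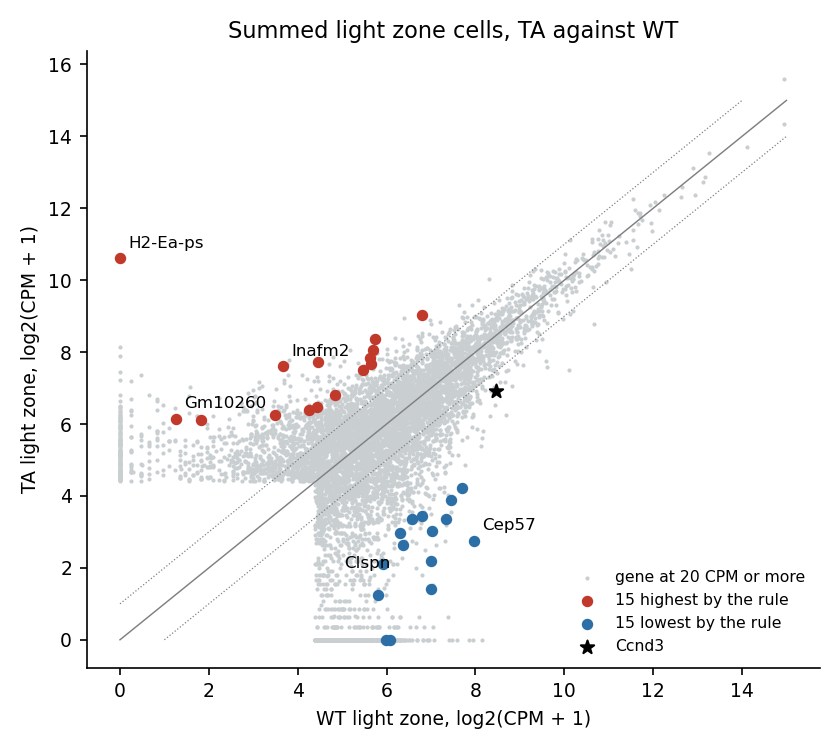
Level of each gene at 20 CPM or more in summed TA light zone cells (vertical axis) against summed WT light zone cells (horizontal axis), both as log2(CPM + 1), with the line of equality and dotted lines at 2-fold. The 15 highest and 15 lowest genes by the rule for named genes are red and blue and Ccnd3 is a star. H2-Ea-ps, at 1565 CPM in TA cells and 0 in WT cells, is the highest of the genes with no WT read.

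The gene furthest from equality was H2-Ea-ps, which encodes the alpha chain of the MHC class II molecule E and lies at chromosome 17, 34341959 to 34344645 (minus strand). GENCODE classes it as a polymorphic pseudogene, because some mouse strains, C57BL/6 among them, carry an inactive copy while others express the chain. All 22 TA light zone cells had reads of it, and none of the 41 WT light zone cells did, which allows a WT share of up to 7.32% by the limit of 3 cells of the total and up to 8.60% by the exact binomial interval. By plate it stood at 1997, 1149, 2204 and 1142 CPM in TA cells and at 0 CPM in WT cells of each plate. The lowest TA cell was at 471 CPM, the median at 1343 CPM and the highest at 5693 CPM, so the groups did not overlap. Summed, 1565 CPM in TA cells is at least 2698-fold higher than WT when WT is set at a floor of 3 counts over its 41 cells, or 0.580 CPM. In the dark zone 97 TA cells, or 96.0%, had reads, against 0 of 82 WT cells; among KO cells it was 0 of 61 in the light zone and 0 of 62 in the dark zone.

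The genes read in TA cells alone were ranked over both zones after their values were seen. Of 49 genes with reads in some TA cells and in none of the 246 WT and KO cells (an allowed share of up to 1.22%), the 5 found in the most TA cells all lay on chromosome 17. They were H2-Ea-ps, read in 22 light zone and 97 dark zone TA cells, Gm11127 in 60 TA cells, H2-Q2 in 28, Gm10499 in 26 and Gm8810 in 9. Gm11127 (36055816 to 36058371) had reads in 11 of 22 TA light zone cells and 0 of 41 WT light zone cells, at 7.04 CPM in TA. H2-Q2 (35342242 to 35346762) and Gm10499 (36141758 to 36145923) each had reads in 6 of 22 TA light zone cells and 0 of 41 WT light zone cells. Gm8810 (36066108 to 36067753) had reads in 2 of 22 TA light zone cells and 0 of 41 WT light zone cells. H2-Q2 is a gene of the MHC class I Q cluster, and all 5 lie in the stretch that holds the H2 complex; their low counts are uncertain, since genes of that complex have near-identical copies among which reads may be split. Ccnd3 lies on the same chromosome, 13.2 Mb further along from H2-Ea-ps. The most widespread genes read in WT cells alone and in KO cells alone reached 5 and 15 cells. Whether H2-Ea-ps belongs to the TA allele or to another difference between the animals cannot be told apart from these labels.

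Other H2 genes were read in both genotypes. H2-Q6, a class I gene, stood at 348 CPM in TA cells and 103.7 CPM in WT cells (log2 ratio 1.74) and was higher in TA on all 4 plates. H2-K1, a classical class I gene, stood at 567 CPM in TA cells and 1165 CPM in WT cells (-1.04) and was lower on all 4 plates, while H2-D1 stood at 1001 CPM in TA cells and 935 CPM in WT cells (0.10). H2-Eb2, a class II beta chain gene, stood at 28.2 CPM in TA cells and 160.5 CPM in WT cells (-2.47), with reads in 2 of 22 and 18 of 41 cells and TA lower on plates 1 to 3 and level on plate 4. In the 2.5 Mb on each side of H2-Ea-ps, 84 genes passed 20 CPM, with a median log2 ratio of -0.03. Of these 15 were 2-fold higher and 16 lower, against 19.1% and 23.5% of all genes. Whether H2 alleles differ in sequence between TA and WT, and so are counted unequally, was not tested and bears on every H2 value here, including those of class II below.

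**Figure D3:**
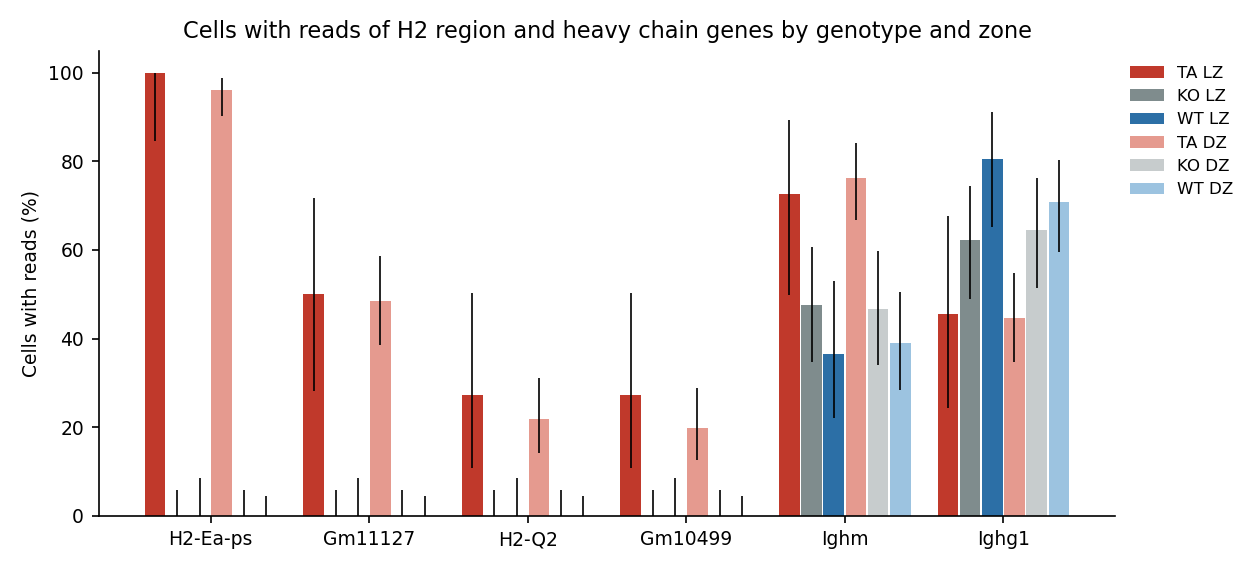
Share of cells with reads (vertical axis, percent) for 4 genes of the H2 region and for Ighm and Ighg1, in TA, KO and WT cells of the light zone (LZ) and dark zone (DZ); lines are 95% exact binomial intervals. The 4 H2 region genes have bars in TA cells alone, 100% of TA light zone cells for H2-Ea-ps, and Ighm and Ighg1 lie in opposite order in TA and WT.

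Antibody class differed between the groups in the same direction in both zones. Ighm, the constant region of IgM, had reads in 16 of 22 TA light zone cells (72.7%, 49.8 to 89.3), against 15 of 41 WT light zone cells (36.6%, 22.1 to 53.1). By plate these were 3 of 6, 3 of 3, 6 of 6 and 4 of 7 TA cells, against 2 of 9, 6 of 12, 1 of 10 and 6 of 10 WT cells, so plate 4 did not show the difference. Ighg1, the constant region of the switched class IgG1, had reads in 10 of 22 TA cells (45.5%, 24.4 to 67.8), against 33 of 41 WT cells (80.5%, 65.1 to 91.2). Its level was 1269 CPM in TA cells and 2881 CPM in WT cells, a log2 ratio of -1.18, and it was lower in TA on each plate, by -1.53, -1.10, -0.86 and -1.80. By the constant region with the most counts in each cell, 10 of the 22 TA light zone cells were of class IgM and 8 of class IgG1, against 9 and 29 of the 41 WT light zone cells. In the dark zone 65.3% of TA cells were IgM and 23.8% IgG1, against 30.5% and 59.8% of WT cells. Of the 61 KO light zone cells, 24 were IgM (39.3%) and 23 IgG1 (37.7%), and 5 had no class. The light zone shares were 45.5% IgM and 36.4% IgG1 in TA cells, and 21.95% and 70.7% in WT cells. By these shares KO light zone cells lay between the 2 and nearer TA. By summed level, Ighg1 in KO light zone cells was at a log2 ratio of 0.04 to WT, and 62.3% of them had reads. In the dark zone 32.3% of KO cells were IgM and 41.9% IgG1. These class shares were drawn up after the gene values were seen. Among light chains, Igkc (kappa) was at 2704 CPM in TA cells and 1756 CPM in WT cells (0.62), higher on all 4 plates, and Iglc1 (lambda) at 441 CPM in TA cells and 1635 CPM in WT cells (-1.89), lower on all 4 plates. Of the WT counts of Iglc1 34.3% came from 1 cell, and the gene was read in 15 of 22 TA cells and 28 of 41 WT cells. The other lambda genes were at 0.81 (Iglc2) and 0.01 (Iglc3) with plates of both signs, and in the dark zone Igkc was at -0.49 and Iglc1 at -0.17.

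The cell cycle genes follow in the order of the pathway, from G1 kinases to mitosis. Because the retinoblastoma pathway acts at E2F sites, the RefSeq promoter windows (GRCm38.p6, 250 bases before to 50 after the start) are shown for Ccnd3 at its upstream start and for the 3 cell cycle genes Clspn, Rbl1 and Cdk2, which were below WT on all plates and were chosen after their values were seen. Capitals mark matches, on either strand, to the E2F-like spelling TTTGGCG, and likewise to the spelling TTTCCCG, to the further spelling TTTGCCG or to the last spelling TTTCGCG, with overlapping matches each counted; 6.70% of all 32851 windows of 300 bases hold at least 1.
Ccnd3: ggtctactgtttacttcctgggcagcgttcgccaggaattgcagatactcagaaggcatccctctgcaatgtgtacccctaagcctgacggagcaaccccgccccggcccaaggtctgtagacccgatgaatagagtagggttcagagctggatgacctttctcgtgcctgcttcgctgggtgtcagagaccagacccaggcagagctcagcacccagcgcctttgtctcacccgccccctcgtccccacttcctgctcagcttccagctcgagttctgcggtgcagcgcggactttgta
Clspn: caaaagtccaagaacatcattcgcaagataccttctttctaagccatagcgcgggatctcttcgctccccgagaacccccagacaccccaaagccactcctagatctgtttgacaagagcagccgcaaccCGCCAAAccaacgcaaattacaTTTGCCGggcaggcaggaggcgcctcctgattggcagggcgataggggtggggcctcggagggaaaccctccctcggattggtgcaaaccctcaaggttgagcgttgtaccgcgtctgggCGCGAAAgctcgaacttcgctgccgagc
Rbl1: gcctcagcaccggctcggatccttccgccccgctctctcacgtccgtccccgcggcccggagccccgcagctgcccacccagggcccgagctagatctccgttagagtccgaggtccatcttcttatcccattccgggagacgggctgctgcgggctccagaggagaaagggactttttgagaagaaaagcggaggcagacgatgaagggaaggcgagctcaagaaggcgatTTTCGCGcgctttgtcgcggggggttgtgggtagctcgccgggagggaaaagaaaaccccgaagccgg
Cdk2: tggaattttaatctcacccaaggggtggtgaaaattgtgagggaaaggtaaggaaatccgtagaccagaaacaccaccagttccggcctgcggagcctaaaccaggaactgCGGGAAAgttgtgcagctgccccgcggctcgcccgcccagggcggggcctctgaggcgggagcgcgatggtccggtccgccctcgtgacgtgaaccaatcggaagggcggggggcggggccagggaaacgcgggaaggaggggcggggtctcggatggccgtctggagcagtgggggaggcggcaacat
The Clspn window at chr4:126556730-126557029 (plus strand) holds 3 matches, that of Rbl1 at chr2:157204485-157204784 (minus strand) 1, and that of Cdk2 at chr10:128705002-128705301 (minus strand) 1. Neither Ccnd3 window, the printed one at chr17:47504801-47505100 (plus strand) or the other at chr17:47593217-47593516, holds these letters. Of the 10 genes among the 15 highest with a window, 1 held a match, and of the 15 lowest, 3 did. Of 17 genes of the cell cycle lists that were 2-fold lower in sum and below WT on all 4 plates, 14 had a window and 6 of these held a match. Whatever their ratio, 25 of 42 genes with a window in the list of G1/S and replication genes held a match. In the list of E2F and DP factors 5 of 8 did, so 6 of 14 is not above these shares. The 6.70% is per window, whereas these counts are per gene, which may have several windows. The windows of Rgs2 and Orai2, among the lowest, held none, and 2 of the 3 windows of Nfkb2, which was higher in TA, held one. A match describes the letters of the window and not binding.

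Among the G1 kinases, their inhibitors and the pocket proteins, 9 of 15 list members passed 20 CPM, with a median of -0.36. Of these 1 was 2-fold higher and 2 lower in TA, against 19.1% and 23.5% of all genes. Cdk2, the partner of E- and A-type cyclins, stood at 21.1 CPM in TA cells and 135.2 CPM in WT cells (-2.63) and was lower on all 4 plates; 3 of 22 TA cells had reads, against 17 of 41 WT cells. Rbl1, the pocket protein p107, stood at 15.3 CPM in TA cells and 121.8 CPM in WT cells (-2.91), again lower on all 4 plates, with reads in 4 of 22 TA cells and 18 of 41 WT cells. The partners of cyclin D3, Cdk4 and Cdk6, were at -0.47 and -0.71, with Cdk4 at 190.3 CPM in TA cells and 264 CPM in WT cells. Rb1, the retinoblastoma protein, stood at 2.74 CPM in TA cells and 3.096 CPM in WT cells with reads in 2 cells of each, too few to compare. The inhibitor Cdkn1b (p27) had reads in 6 of 22 TA cells and 4 of 41 WT cells, at 16.95 CPM in TA cells and 6.38 CPM in WT cells (1.28), with plates of both signs; Cdkn1a had no read in either group.

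The E2F and DP factors were the only one of the 37 lists whose median passed 0.5 in size with the same sign on all 4 plates. Of 8 members past 20 CPM, 6 were at least 2-fold lower in TA and 1 higher, against 23.5% and 19.1% of all genes, and the median was -1.20, by plate -0.30, -5.12, -3.33 and -1.14. Over all 7119 genes the plate medians were -0.15, -3.27, -0.01 and 0, so a median below 0 on plate 2 is the background there. Tfdp1, the DP partner of the E2Fs, was the most abundant at 81.2 CPM in TA cells and 209 CPM in WT cells (-1.35) and was lower on all 4 plates. By plate it stood at 60.8, 0, 0 and 173.1 CPM in TA cells, against 211, 255, 121.6 and 218 CPM in WT cells. In G1 cells it was at 0.78, with reads in 2 of 12 TA cells and 1 of 15 WT cells. The repressor E2f8 was at -1.05 and also lower on all 4 plates, while the activators E2f2 and E2f3 were at -1.41 and -1.66 and above WT on plate 1. E2f7 was at 1.36, with reads in 2 of 22 TA cells and 8 of 41 WT cells and a ratio below 0 on plates 1 to 3. The activator E2f1 was at 0.74 with reads in 3 cells of each group. In dark zone cells of the same genotypes the 8 members had a median of 0.03.

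Of the genes of the G1/S transition and replication 50 passed 20 CPM, with a median of -0.37. Of these 3 were 2-fold higher and 7 lower, against 19.1% and 23.5% of all genes. The most abundant differed by less than 2-fold in sum: Mcm6, a helicase subunit, stood at 628 CPM in TA cells and 831 CPM in WT cells, Rrm2, a ribonucleotide reductase subunit, at 621 CPM in TA cells and 708 CPM in WT cells, and the sliding clamp Pcna at 469 CPM in TA cells and 610.5 CPM in WT cells. Reads of Mcm6 were in 13 of 22 TA cells and 33 of 41 WT cells, and Rrm2 and Pcna were each read in 8 of 22 TA cells. Pcna had no TA read on plates 2 and 3 and Rrm2 none on plate 2. Of the 50, 3 were both 2-fold lower in sum and below WT on all 4 plates, near the 6.48% of all genes. Clspn, the checkpoint adaptor claspin, stood at 5.20 CPM in TA cells and 81.2 CPM in WT cells (-3.73). The others were Gmnn, the licensing inhibitor geminin (-1.80), and Fen1, the flap endonuclease (-1.03). The 64 mitotic genes past 20 CPM had a median of -0.49. Of them 20 were 2-fold lower and 7 higher, against 23.5% and 19.1% of all genes. Both 2-fold lower in sum and below WT on all 4 plates were 10, against 6.48% of all genes. Cdc20, the activator of the anaphase-promoting complex, had no read in any TA cell and reads in 12 of 41 WT cells at 74.4 CPM. By summed counts it was at least 90.8-fold higher in WT when TA is set at 3 counts over the group. By cells, 0 of 22 allows a TA share of up to 15.4% (exact binomial interval). Hmmr and Ckap2, of the mitotic spindle, were likewise at 0 in TA cells and had reads in 9 and 6 WT cells. Top2a, the chromosome topoisomerase and the most abundant of the list, stood at 817 CPM in TA cells and 1156 CPM in WT cells (-0.50).

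The plates differed widely in these lists, and so did the phases of their cells. The G1/S median was -0.07, -6.02, -2.95 and 0.43 on plates 1 to 4 and the mitotic median -0.87, -6.66, -2.28 and 0.11. By the authors' phase call 12 of 22 TA cells were in G1 (54.5%, 32.2 to 75.6), against 15 of 41 WT cells (36.6%, 22.1 to 53.1). In S were 8 of 22 TA cells (36.4%, 17.2 to 59.3), against 18 of 41 WT cells (43.9%, 28.5 to 60.3), and in G2M 2 of 22 TA cells, against 8 of 41 WT cells. These intervals overlap in every phase. Of the 8 TA cells in S, 6 were among the 7 TA cells of plate 4, 2 were on plate 1 and none on plates 2 and 3, whereas WT cells in S numbered 4, 5, 5 and 4 on the plates. Without plate 4 the TA share in S was 13.3%, the G1/S median -1.26 and the mitotic median -1.97; without plate 3 the G1/S median was 0.07, and without plate 2 the mitotic median was 0.14. Within G1 cells the E2F median was -1.28 over 5 members past 20 CPM, each read in at most 2 TA cells, and within S cells -1.20 over 9. The authors' E2F target score had a median of 0.0126 in TA cells and 0.238 in WT cells. In the dark zone the order of the genotypes was the other way for S phase, with 46 TA cells or 45.5%, against 20 WT cells or 24.4%, and the G1/S genes were at a median of 0.67, 48 of 50 above 0; the difference between zones was not tested.

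**Figure D4:**
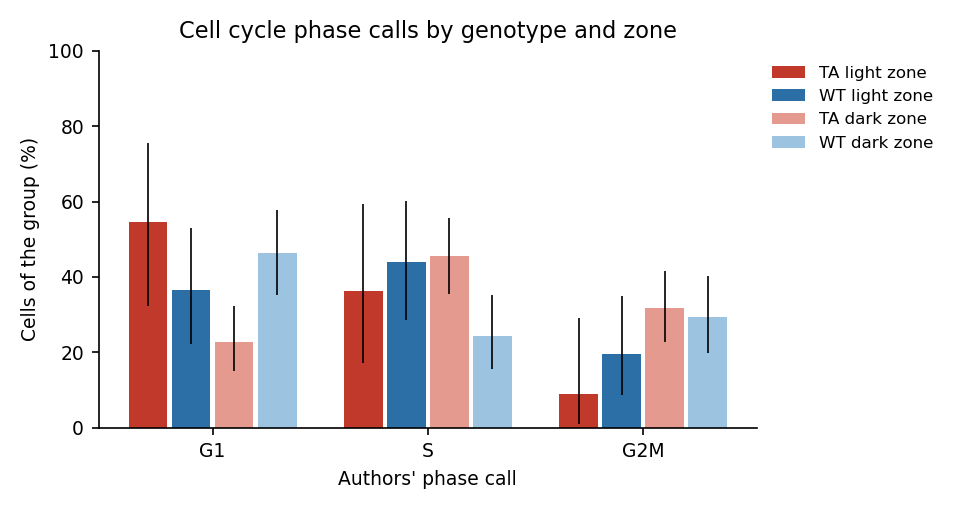
Share of cells (vertical axis, percent) called G1, S or G2M by the authors in TA and WT cells of the light zone and of the dark zone; lines are 95% exact binomial intervals. In the light zone 36.4% of TA cells and 43.9% of WT cells were in S, in the dark zone 45.5% of TA cells and 24.4% of WT cells.

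**Figure D5:**
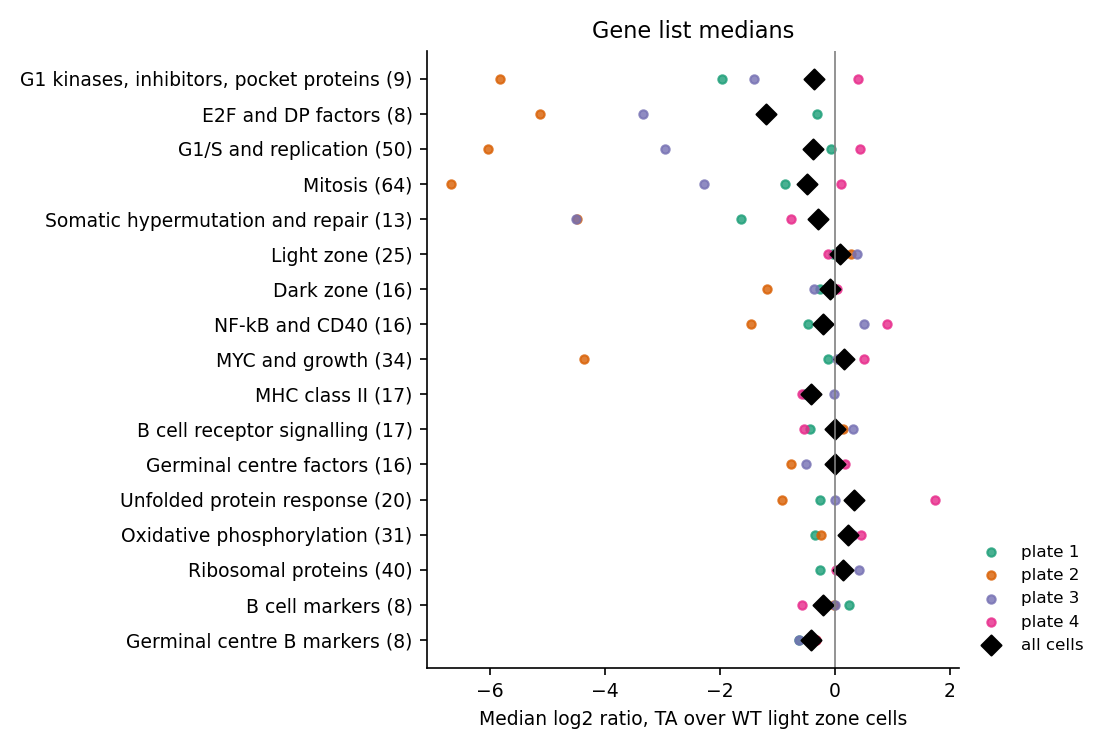
Median log2 ratio of TA over WT light zone cells for 17 gene lists, over all cells (black diamonds) and by plate (coloured points); the number of members at 20 CPM or more is in brackets. The G1/S and mitotic medians lie between -0.87 and 0.43 on plates 1 and 4 and between -6.66 and -2.28 on plates 2 and 3, while the light zone medians lie between -0.12 and 0.38.

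The light zone genes had a median of 0.09 over 25 members, 6 of them 2-fold higher and 6 lower, near the 19.1% and 23.5% of all genes. By phase call the median was 0.58 in G1 cells and -1.09 in S cells. Since 6 of the 8 TA cells in S were on plate 4, phase and plate cannot be told apart in values by phase. Cd83, a surface marker of light zone cells, stood at 3028 CPM in TA cells and 3214 CPM in WT cells, with reads in 19 of 22 and 36 of 41 cells. Cd86, the costimulatory ligand used in the sort, stood at 745 CPM in TA cells and 453 CPM in WT cells (0.72), with plate 4 of the opposite sign. Nfkb2, the p100 subunit of the non-canonical NF-kB pathway, was at 146.01 CPM in TA cells and 53.8 CPM in WT cells (1.42). It was higher on all 4 plates, at 179.1, 161.4, 100.65 and 155.7 CPM in TA cells, against 49.6, 95.3, 19.2 and 16.99 CPM in WT cells, and 14 of 22 TA cells had reads, against 15 of 41 WT cells. The 16 NF-kB and CD40 genes had a median of -0.20. Of them 4 were 2-fold higher and 2 lower in sum, against 19.1% and 23.5% of all genes. Nfkb2 alone was also above WT on all 4 plates, against 1.25% of all genes. Icam1 (-1.06) was the only 1 of the 2-fold lower genes below WT on all 4, against 6.48% of all genes. Ccr6, the receptor for CCL20, was also higher on all 4 plates (1.92) but had reads in only 4 of 22 TA cells and 3 of 41 WT cells.

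Myc, the growth regulator induced by T cell help, had reads in 2 of 22 TA cells (9.09%, 1.12 to 29.2), against 11 of 41 WT cells (26.8%, 14.2 to 42.9), at 19.1 CPM in TA cells and 59.6 CPM in WT cells (-1.59); 85.7% of the TA counts came from 1 cell. The 9 immediate early and stress genes past 20 CPM had a median of -0.60. Of them 3 were 2-fold lower in sum and below WT on all 4 plates and none 2-fold higher, against 6.48% and 19.1% of all genes. The phosphatase gene Dusp2 had reads in 3 of 22 TA cells and 26 of 41 WT cells (-1.87), the antiproliferative Btg2 in 9 of 22 and 32 of 41 (-1.26), and the transcription factor gene Egr2 in 0 of 22 and 4 of 41. Genes of MYC-driven growth had a median of 0.15 over 34 members, with the nucleolar protein Npm1 at 3119 CPM in TA cells and 1926 CPM in WT cells (0.70).

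The median of the MHC class II genes over 17 members was -0.41, by plate -0.52, -0.35, -0.02 and -0.57. Of them 4 were 2-fold lower and 1 higher, against 23.5% and 19.1% of all genes. The beta chain H2-Ab1 stood at 5848, 5596, 6875 and 3923 CPM on plates 1 to 4 in TA cells, against 8386, 7135, 8299 and 8511 CPM in WT cells, lower on each plate at a log2 ratio of -0.58. Cd74, the invariant chain, was at -0.32 and H2-Eb1 at -0.45, both lower on each plate, and H2-Aa was at -0.61, lower on 3. Lgmn, a lysosomal protease of antigen processing, was at -1.98 and lower on all 4 plates. Germinal centre markers had a median of -0.42 over 8 members: Rgs13, a regulator of chemokine receptor signals, stood at 537 CPM in TA cells and 1115 CPM in WT cells (-1.05), lower on all 4 plates, while Mybl1 was at 0.03. Among positioning genes the chemokine receptor Cxcr5 was at 1.06 and the G protein effector Arhgef1 at -1.06, each of the same sign on all 4 plates; by phase Cxcr5 was at 1.35 in G1 cells and -0.86 in S cells. B cell receptor signalling genes (0.01, 17 members), ribosomal protein genes (0.14, 40 members) and oxidative phosphorylation genes (0.23, 31 members) lay near the median of all genes, with 0, 0 and 3 members past 2-fold, although the B cell receptor median was -0.79 in S cells. Memory-like and naive B cell lists had medians of 1.92 and 1.80 over 9 and 5 members. By plate, 1 to 4, the memory-like median was 0, 2.99, 0 and 0 and the naive median 0, 0, 1.53 and 0. In dark zone cells the 2 medians were -0.36 and -0.14. Some members rested on 1 cell, such as Cd38 with reads in 1 cell of each group.

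By the rule for named genes, which asks for 50 CPM, reads in 30% of cells of the higher group and the same sign on all 4 plates, 47 genes were higher and 140 lower. After H2-Ea-ps the highest was Gm10260, at 69.7 CPM in TA cells and 1.38 CPM in WT cells (4.89), with reads in 17 of 22 and 3 of 41 cells; in dark zone cells it was at 5.05. The next were Gm13012 (4.29), Inafm2 (3.93), the coat vesicle factor Sec23ip (3.27) and the mitochondrial hydratase Auh (2.75). They were followed by Dcaf13, a ribosome biogenesis factor (2.62), the nucleoporin Nup214 (2.35), the retromer subunit Vps35 (2.23), the N-terminal acetyltransferase Naa20 (2.20), Llph (2.14), the transcription factor Gtf3a (2.05), the GTPase Gimap7 (2.03), the mRNA capping enzyme Rngtt (2.03) and the mitochondrial ATPase Atad3a (1.98). Each of the last 13 was read in 7 to 11 of 22 TA cells, and in dark zone cells their log2 ratios lay between -1.01 and 1.18.

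The lowest were led by Rgs2, a regulator of G protein signals, and Orai2, a calcium channel subunit. Neither had a read in any TA cell, and 13 and 15 of 41 WT cells had reads. By summed counts, WT was at least 80.6-fold and 76.1-fold higher than TA set at 3 counts over the group. Counts are not independent molecules, and 0 of 22 TA cells allows a share of up to 15.4% by the exact binomial interval. Sesn1, a stress-induced inhibitor of growth signals, had reads in 1 of 22 TA cells and 13 of 41 WT cells (-5.60). Cep57, of the centrosome, stood at 5.74 CPM in TA cells and 250.2 CPM in WT cells (-5.22), with reads in 4 of 22 and 24 of 41 cells; by plate the ratio was -7.31, -7.35, -5.77 and -4.64, and it was 0.45 between the dark zone groups. The others were the palmitoyltransferase Zdhhc20 (-4.82), the endocytic adaptor Pacsin1 (-4.56), Zfp106 (-4.00), Ankrd13c (-3.98), the kinase Mast3 (-3.83), Clspn, Vps13a (-3.57), the ribosome assembly factor Utp3 (-3.47), Parp3 (-3.35), the lipid kinase Pi4kb (-3.34) and the mitochondrial ribosomal protein Mrpl28 (-3.20). All 15 had reads in at most 4 TA cells.

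CD86 staining had a median of 995.5 in TA cells and 1247 in WT cells in arbitrary units, CXCR4 staining 412 in TA cells and 438 in WT cells, and forward scatter, a measure of size, 88667 in TA cells and 94973 in WT cells. The ratio of CXCR4 to CD86, low in light zone cells, had a median of 0.252 in TA cells and 0.389 in WT cells; all ranges overlapped. Of the wells 8 shared all 3 sort values with a well of another plate, in 4 pairs, among them 2 WT light zone cells that form 1 pair, so the sort values and zone of at least 1 of these are in doubt. Without both, the WT median of the ratio was 0.387 and the Ccnd3 log2 ratio -1.51. Among the cells of each genotype with a labelled zone, 22 TA cells were of the light zone (17.9%, 11.6 to 25.8), against 41 WT cells (33.3%, 25.1 to 42.4) and 61 KO cells.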

How the data were processed

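Expected counts per gene and well, not normalized, were deposited by the authors in a combined table of 15177 genes and 373 cells. The submitters' processing notes list RSEM 1.3.1 along with STAR 2.6, the build mm10 and Seurat 3.1.4, and do not tie any to a step. The deposited cell table gave the percent of mitochondrial reads, the authors' phase calls and gene set scores, and sort intensity in arbitrary units; scores are used as given. All 22 TA and 41 WT light zone wells labelled in the experiment were in the combined table, no 2 cells held identical counts, and no other column of per-sample values was left unmapped.

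Counts were summed over the cells of a group, scaled to the library total (CPM, without gene length, so levels are compared between groups and not between genes) and compared as log2((TA + 1)/(WT + 1)), also within each of the 4 plates, with genes kept at 20 CPM in either group. Such a ratio understates the change of low genes. Reads in a cell means a count above 0. Without molecular identifiers, reads are not independent molecules. Intervals are 95% exact Poisson or exact binomial (Clopper-Pearson). Python 3.11.15, pandas 2.3.3, scipy 1.17.1, and edgeR 4.0.16 in R 4.3.3 for TMM scaling of the 2 sums were used; the ratio code was tested on simulated data. Gene positions are from GENCODE on GRCm38, which placed 14948 of the 15177 symbols.

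Named genes had 50 CPM and reads in 30% of cells of the higher group, a 2-fold ratio, the same sign on all 4 plates and with cells weighted equally, and at most 50% of their counts from 1 cell; the 15 highest and 15 lowest are named, immunoglobulin variable segments are counted only, and Ccnd3, the D-type cyclins, G1 kinases, inhibitors, pocket proteins and E2F factors are added, with the 4 most abundant members of other lists and those past 2-fold in sum with the same sign on all 4 plates. Genes outside this rule (those of the H2 region apart from H2-Ea-ps, and the class shares) were chosen after their values were seen. The comparison and the 37 gene lists were chosen with earlier results of these data known. A list counted as different when its median passed 0.5 in size with the same sign on all 4 plates.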

Additional observations from a re-analysis of the deposited data

Results flagged for a closer look

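Several genes had a TA over WT log2 ratio of one sign on all 4 plates among light zone cells. In dark zone cells their ratio had the opposite sign on all 4 plates. The share of all genes with this pattern is not given here, the difference between zones was not tested, and plates are not animals. Of the 461 genes 2-fold lower in TA light zone cells and below WT on all 4 plates, 393 had no TA read on plate 2. Below WT in the light zone and above it in the dark zone were Cdk2 (-2.63 in the light zone, 0.76 in the dark zone), the licensing inhibitor Gmnn (-1.80 and 0.85), the E-type cyclin Ccne2 (-0.36 and 0.71), the spindle gene Hmmr (-6.37, with no read in TA light zone cells, and 0.82) and Vps13a (-3.57 and 0.87). Of the 22 TA light zone cells, 3 had reads of Cdk2, 5 of Gmnn, 1 of Ccne2 and at most 4 of Vps13a. On plate 2 the light zone median over all 7119 genes was -3.27. The 11 members of the p53 and DNA damage list had medians of -0.078 and 0.27 and showed the same opposition on each plate. Above WT in the light zone and below it in the dark zone were Cxcr5 (1.06 and -0.90) and Gimap7 (2.03 and -1.01).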

How the results depend on the processing

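Of 3848 recomputed values for 242 results, 3670 were classed as the same, 11 as reversed and the others as moved. Unless reversed, a log2 ratio or list median counted as the same within the standard deviation of its 4 plate values. That limit is wide where plates differ, as for the G1/S median, at -6.02 on plate 2 and 0.43 on plate 4. Shares of cells were set against the counting interval. Leaving out cells with T cell or myeloid markers removed no cell, so all 210 values of that setting were the same by construction. The 11 reversed values do not hold every change of sign. The light zone median was 0.09 over all cells and -0.01 without the WT cells that share sort values. That setting had 0 values classed as reversed. The Ccnd3 log2 ratio stayed between -1.93 and -1.25 under every alternative run. The genes at least 2-fold higher in TA numbered 855 by the mean of the within-plate ratios, 781 with a 50 CPM filter, 2231 with no filter and 2145 in G1 cells; the genes at least 2-fold lower in TA numbered 3535, 817 and 3598 under the first 3 of these. Leaving out a plate, the genes at least 2-fold higher in TA on all plates numbered 209 to 334 and the genes at least 2-fold lower in TA on all plates 652 to 1091; S cells, which both genotypes had on 2 plates, gave 335 and 905, G1 cells 120 lower, and the 50 CPM filter 289 lower; fewer plates or genes are asked for by construction. The light zone median was 0.58 in G1 cells, -1.09 in S cells and -0.34 to 0.42 without a plate. In S cells the MHC class II, B cell receptor and B cell marker medians were -0.79, -0.79 and -0.79. The germinal centre marker median was -0.88 by the mean of plates, -0.18 in thinned cells (chosen after seeing the data) and -0.66 to -0.29 without a plate. The TA share in S was 13.3% to 50% without a plate. By the mean of plates Cdkn1b was -0.22, E2f7 -2.09 and Ifi203 -2.02. In S cells Cdkn1b was -0.58 and Cxcr5 -0.86. In G1 cells Fen1 was 4.92, Tfdp1 0.78 and Ifi203 -7.57, each resting on few cells. Of 12 TA and 15 WT cells in G1, 1 and 0 had reads of Fen1. Reads of Tfdp1 were in 2 and 1 of them, and of Ifi203 in 0 and 4. Without a plate E2f4 ranged from -2.27 to 0.24, E2f7 from -4.05 to 1.82 and Ifi203 from -6.38 to 3.38. Without the WT cells that share sort values (chosen after seeing the data) the light zone median was -0.01 and the E2F median -1.25. The causes were not tested. No cell was marked for both zones or for 3 T cell or myeloid markers, and G2M cells (2 in TA) were not compared. No test was run, paired or not. The mean of the within-plate ratios above is the only setting that matches cells by plate. With 22 TA cells and 3 on plate 2, genes read in few cells could not be compared.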

Other observations

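Cep85, a centrosome protein gene, and the long non-coding RNA Gm42031 were chosen after their values were seen, because the share of cells with reads was lower in TA by at least 35 points in the light zone and 20 points in the dark zone. Ighg1 and Bcar3 met the same rule; Bcar3, read in 7 of 22 TA light zone cells and 30 of 41 WT light zone cells, was above WT in level on plates 3 and 4. Cep85 had reads in 12 of 22 TA light zone cells and 39 of 41 WT light zone cells, at 190.7 CPM in TA cells and 781 CPM in WT cells, and was lower in TA on all 4 plates. Gm42031, on chromosome 8, had reads in 11 of 22 TA light zone cells and 38 of 41 WT light zone cells, at 56.8 CPM in TA cells and 263 CPM in WT cells, and was also lower on all 4 plates. In the dark zone 73.3% of TA cells and 97.6% of WT cells had reads of Gm42031, and 60 of 61 KO light zone cells did. In all, 11 genes of 15177 met the rule in the same direction in both zones, 7 with a higher and 4 with a lower share in TA.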
